A study of Homo sapiens with 66 samples.

Results

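The nuclear genes of oxidative phosphorylation were followed through the acute loss of nuclear basket and mRNA export proteins in human DLD-1 cells, a line from a colorectal adenocarcinoma. Members were the protein-coding nuclear genes whose symbols begin with NDUFA, NDUFB, NDUFC, NDUFS, NDUFV, UQCR, COX4I, COX5, COX6, COX7, COX8, ATP5F1, ATP5M or ATP5P. The rule gave 93 of 58051 listed genes, of which 48 belonged to complex I, 9 to complex III, 17 to complex IV and 19 to complex V. A filter on low expression kept 17812 genes for testing, 86 of them members (48, 9, 11 and 18 by complex). The 7 untested members were COX4I2, COX6A2, COX6B2, COX7A1, COX7B2, COX8C and ATP5MGL. The prefixes also took in the 8 NDUFAF assembly factors of complex I, which are no part of the finished enzyme, and the read-through genes NDUFC2-KCTD14 and ATP5MF-PTCD1, which join a member to its neighbour.

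The series held 66 RNA-seq libraries in 22 groups of 3. In the tagged lines CRISPR/Cas9 had placed an auxin-inducible degron (AID) on the gene of interest, and the TIR1 ligase that recognises it was expressed from the RCC1 locus. Auxin at 1 mM then removed the tagged protein within hours. The lines were AID-NeonGreen-TPR, NUP153-NeonGreen-AID and NUP50-NeonGreen-AID for the 3 basket nucleoporins, AID-FLAG-NXF1 for the mRNA export receptor, AID-HA-GANP1 for the scaffold of the TREX-2 export complex (gene MCM3AP) and GAP1-NeonGreen-AID for the Ran GTPase activator RANGAP1. They are written here AID-TPR, NUP153-AID, NUP50-AID, AID-NXF1, AID-GANP and RANGAP1-AID. Auxin was given for 2 h to AID-TPR, NUP153-AID, RANGAP1-AID, AID-NXF1 and the original untagged DLD-1, for 3 h to NUP50-AID and AID-GANP, for 8 h to AID-TPR, NUP153-AID and RANGAP1-AID, and for 9 h to NUP50-AID. Each tagged line had its own untreated group. AID-TPR had a plain set (untreated and 2 h auxin) and a set labelled old (untreated, 2 h and 8 h auxin), and 2 further AID-TPR groups received the transcription inhibitor actinomycin D (ActD) for 2 h, alone or with auxin. The parental groups are called by their labels below, because the sources used here differ on which of them received auxin, and no direction is drawn from them.

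Oxidative phosphorylation couples electron flow through complexes I, III and IV of the inner mitochondrial membrane to proton pumping, and complex V (ATP synthase) spends the proton gradient on making ATP. Most subunits are encoded in the nucleus, transcribed by RNA polymerase II, exported as mRNA and imported into mitochondria as protein, while a small core is encoded in mitochondrial DNA. Many of the nuclear promoters are known targets of NRF1, of the ETS factor GABP (NRF2) and of YY1. The mRNAs are generally abundant and long-lived.

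RefSeq promoters (build GRCh38.p14, from 250 bases before to 50 bases after the transcription start) were matched for 74 of the 93 members and searched on both strands for the letters TGCGCANGC (NRF1), CCGGAAGT (ETS) and AAGATGGCG (YY1). The NRF1 letters stood in 15 member promoters (20.3%, against 5.28% of 27305 symbols), the ETS letters in 11 (14.9%, against 4.95%) and the YY1 letters in 9 (12.2%, against 2.14%), and 30 held any of them (40.5%, against 11.3%). The 27305 symbols outnumber the 17812 tested genes, so they include genes not tested here. They are no baseline matched to the members in expression or gene type. Stretches from 6 of these promoters are shown, all of genes named in the comparisons below. They are written 5′ to 3′ on the strand of the gene with the matched letters in capitals. The NRF1 letters are marked for NDUFAF5 (chr20:13785011-13785052, plus strand), NDUFA8 (chr9:122159776-122159855, minus strand) and NDUFA9 (chr12:4649021-4649100, plus strand), the ETS letters for UQCRH (chr1:46303636-46303715, plus strand) and ATP5PD (chr17:75047007-75047086, minus strand), and the YY1 letters for ATP5PF (chr21:25735047-25735126, minus strand).
NDUFAF5: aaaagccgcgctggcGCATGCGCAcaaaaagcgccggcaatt
NDUFA8: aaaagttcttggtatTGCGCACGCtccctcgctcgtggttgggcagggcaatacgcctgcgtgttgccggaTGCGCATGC
NDUFA9: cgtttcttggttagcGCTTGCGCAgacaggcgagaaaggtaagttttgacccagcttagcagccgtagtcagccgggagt
UQCRH: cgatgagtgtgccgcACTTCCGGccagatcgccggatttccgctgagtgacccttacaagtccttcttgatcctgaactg
ATP5PD: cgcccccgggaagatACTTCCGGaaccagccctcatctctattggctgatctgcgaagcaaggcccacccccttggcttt
ATP5PF: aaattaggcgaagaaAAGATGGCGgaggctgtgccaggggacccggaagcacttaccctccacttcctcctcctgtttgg
A match describes letters, not a bound site. Among tested members with a promoter, the NRF1 letters were in 7 of the 38 that passed a test after NXF1 loss, GANP loss or ActD (18.4%) and in 7 of the 32 that did not (21.9%).

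Libraries held 18943661 to 55411411 counts, and members took 0.758% to 1.15% of them. The epithelial markers EPCAM (338 to 734 CPM, counts scaled to the TMM-adjusted depth of the library), KRT8 (2353 to 7700 CPM), KRT18 (1814 to 5570 CPM), KRT19 (354 to 1392 CPM), CDH1 (419 to 791 CPM) and CDX2 (69.8 to 358 CPM) were high in every library, VIL1 was low (1.34 to 29.6 CPM) and CDX1 was near 0 (at most 0.537 CPM). Markers of leukocytes, endothelium and fibroblasts reached at most 6.67 CPM (CD68) and 12.6 CPM (VWF). The RNA of the tagged gene, which is no check of protein loss, changed in its own line by -0.06 to 0.29 on the log2 scale. In bulk RNA, fewer cells and less RNA per cell cannot be told apart. The study's methods call the replicates of a group biological and independent.

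Complex I genes had the lowest median level per length in untreated DLD-1, and the other complexes lay close together. Median levels per kilobase of exon were 16.7 CPM for complex I, 34.5 for complex III, 42.2 for complex IV and 37.2 for complex V. Length was that of all annotated exons of a gene merged, not of a single mRNA, and the order of genes depends on it. ATP5F1A, for example, had 607.9 CPM but 55.7 CPM per kb, and COX8A 112.8 CPM but 228 CPM per kb. The highest level per kilobase was that of ATP5F1B, the catalytic beta subunit of ATP synthase (368 ± 8.96 CPM per kb, SD, n = 3), followed by COX8A (228 ± 7.46), NDUFA1 (169 ± 13.9), ATP5ME (114 ± 5.26), ATP5MK (107 ± 6.54), NDUFS5 (104 ± 1.62) and UQCRH (103 ± 3.76). ATP5F1B, COX8A and NDUFA1 lay apart by more than their SDs. Among ATP5ME, ATP5MK, NDUFS5 and UQCRH the mean ± SD ranges of successive genes overlapped. NDUFA4L2 (0.88 CPM per kb), NDUFAF6 (1.17) and NDUFAF5 (2.98), an assembly factor that modifies NDUFS7, were the lowest tested members.

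**Figure D1:**
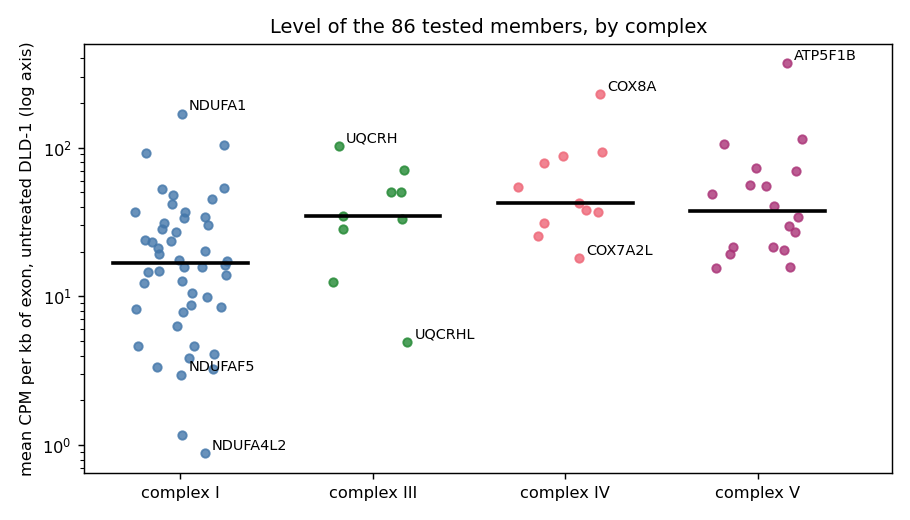
Mean level of the 86 tested members in untreated DLD-1 (CPM per kb of exon, log axis), 1 point per gene, by complex, with a bar at the median. The complex I median of 16.7 lies below the medians of the other complexes, and ATP5F1B stands highest at 368.

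Where isoforms exist, the ubiquitous one carried the reads. Untreated DLD-1 had 184.8 CPM of COX4I1 and 0 reads of COX4I2, 117.2 CPM of COX6A1 and 0 reads of the heart and muscle form COX6A2, and 77.2 CPM of COX7B and 0 reads of COX7B2, where a count of 0 allows up to 3 counts, or 0.0907 CPM in the shallowest of these libraries (counting error only). COX6B1 had 107.2 CPM against 0.483 for the testis form COX6B2. COX7A2 and COX7A2L, the latter a supercomplex factor, had 104.8 and 101.3 CPM against 0.463 for the muscle form COX7A1, and COX8A had 112.8 CPM against 0.0159 for COX8C. NDUFA4, now counted with complex IV, had 107.6 CPM and its hypoxia-induced relative NDUFA4L2 had 2.47 CPM. All 3 genes for the same c-ring subunit of ATP synthase were expressed, ATP5MC3 at 48.8, ATP5MC1 at 21.4 and ATP5MC2 at 20.5 CPM per kb. Tested members were short genes with few exons (median 4 exons, against 9 over 13137 tested protein-coding genes).

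Overlapping genes were counted differently in different libraries, which bears on 10 members. Untreated plain AID-TPR exceeded untreated old AID-TPR over 2-fold in these 10, each of which shares its strand with an overlapping gene. The ratio was 157 for ATP5MF-PTCD1 (100.0 against 0.14 CPM), 57.8 for NDUFC2-KCTD14 (28.4 against 0 CPM, with 0.5 CPM added to both), 21.4 for NDUFV2 (86.5 against 3.56 CPM), 20.8 for NDUFA13 and 18.3 for NDUFA7, and 4.51 for NDUFC2, 3.88 for NDUFA9, 3.09 for NDUFB8, 2.69 for NDUFA11 and 2.30 for ATP5PO. In replicate 1 of the plain set NDUFV2 and the lncRNA overlapping it had 2568 and 2563 counts, and in old1 they had 87 and 0. Among the 64 tested members with no gene on their own strand, the log2 ratio between the sets ran from -0.90 to 0.62. Levels of the 10 genes therefore were not compared between sets, and every test below stayed within one set except ActD, where the ActD libraries carry no old label and were set against the untreated old AID-TPR libraries. In that comparison drug and label set cannot be told apart. Genes of mitochondrial DNA had counts in 42 libraries and none in the other 24 (the plain AID-TPR, AID-NXF1, AID-GANP and parental libraries), so the mitochondrial core subunits were not analysed here.

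**Figure D2:**
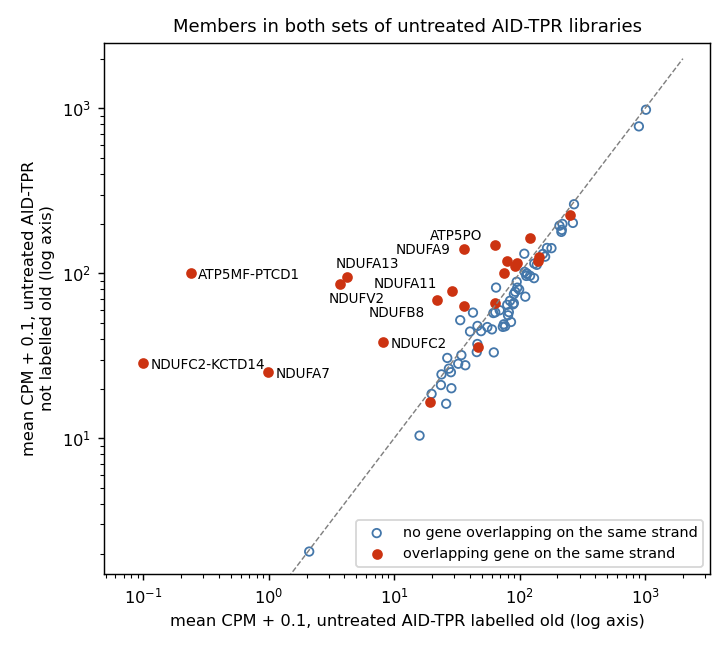
Mean CPM (plus 0.1) of each tested member in untreated AID-TPR labelled old (x, log axis) and not labelled old (y, log axis), filled where another gene overlaps on the same strand. The 10 members over 2-fold above the diagonal, led by ATP5MF-PTCD1, are all filled.

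The test was edgeR's quasi-likelihood fit over the 17812 genes, and a gene passed when its Benjamini-Hochberg adjusted p was under 0.05, whatever its fold change. Comparisons that follow use log2 fold changes of libraries scaled by TMM.

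Loss of NXF1 for 2 h was followed by small rises across all 4 complexes. Of the 86 members 84 lay above 0, with a median log2 fold change of 0.14 against 0.01 over all genes, and 23 passed, every one higher (26.7% of members). Over all genes 21.5% passed, 7.4% higher and 14.1% lower. By complex 10 of 48 passed in complex I (median 0.13), 4 of 9 in complex III (0.15), 3 of 11 in complex IV (0.16) and 6 of 18 in complex V (0.15). In 52 members all 3 auxin libraries exceeded all 3 untreated ones, against 17.6% of all genes.

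In complex I the smallest adjusted p was that of NDUFAF5. It had 21.3, 22.6 and 19.3 CPM untreated and 27.7, 27.5 and 27.1 CPM with auxin (log2 0.38 ± 0.07, SE, adjusted p = 0.00244). The groups were far apart. NDUFB9, an accessory subunit of the membrane arm, went from 76.6, 75.8 and 68.4 CPM to 89.3, 89.1 and 82.1 CPM (0.24, adjusted p = 0.0138). NDUFA9, an accessory subunit near the junction of the arms, went from 120.4, 111.5 and 115.1 CPM to 143.1, 135.0 and 127.5 CPM (0.22, adjusted p = 0.0139). Every auxin library was above every untreated one for both. Among the core subunits that carry electrons from NADH, NDUFV1 had 125.5, 122.2 and 111.0 CPM untreated and 142.0, 140.8 and 131.5 CPM with auxin (0.21, adjusted p = 0.0242), NDUFV2 rose by 0.17, while NDUFS1 (0.13, adjusted p = 0.0768) did not pass. The lowest member was the assembly factor NDUFAF4, at 32.1, 32.8 and 34.4 CPM untreated and 30.2, 31.8 and 29.7 CPM with auxin (-0.11, adjusted p = 0.193).

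Complex III followed with UQCRHL, UQCRC1, UQCRH and UQCRB. The hinge protein gene UQCRH, which acts with cytochrome c1, had 172.8, 172.2 and 169.1 CPM untreated and 204.0, 195.0 and 186.2 CPM with auxin (0.19, adjusted p = 0.0198). Its intronless copy UQCRHL had 11.02, 12.5 and 11.5 CPM and then 13.3, 13.7 and 15.3 CPM (0.28 ± 0.09, adjusted p = 0.0416). The pair is near-identical, so reads may be split between them and both values are uncertain. UQCRC1, a core structural subunit, went from 174.7, 163.0 and 157.1 CPM to 197.7, 191.8 and 177.1 CPM (0.20, adjusted p = 0.0332). The Rieske iron-sulfur subunit UQCRFS1 stayed nearest 0 of the complex (0.04, adjusted p = 0.736, and -0.025 when scaled by library size alone), and its auxin and untreated libraries overlapped.

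In complex IV the 3 that passed were COX8A, COX6C and COX7C, small subunits around the catalytic core. COX8A had 97.3, 90.0 and 95.5 CPM untreated and 106.0, 108.4 and 104.6 CPM with auxin (0.17, adjusted p = 0.0266). COX7C had 185.9, 181.2 and 180.5 CPM and then 207.8, 208.3 and 196.5 CPM (0.16, adjusted p = 0.031), and COX6C 95.1, 96.9 and 101.9 CPM and then 107.3, 111.8 and 110.4 CPM (0.17, adjusted p = 0.0309). The groups were separate for each. COX5B (0.17, adjusted p = 0.0546) and COX4I1 (0.13, adjusted p = 0.0816) had values of like size that did not pass.

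Among genes of ATP synthase ATP5PO, the stalk subunit that confers oligomycin sensitivity, had 148.7, 150.1 and 148.2 CPM untreated and 171.4, 174.0 and 170.0 CPM with auxin (0.21 ± 0.04, adjusted p = 0.00647). The groups were separate by more than the range of either. ATP5F1E, the epsilon subunit of F1, went from 165.4, 160.6 and 161.9 CPM to 189.9, 188.4 and 180.3 CPM (0.20, adjusted p = 0.0113). ATP5PB, the b subunit of the stalk, went from 146.1, 138.7 and 140.6 CPM to 171.4, 163.6 and 151.5 CPM (0.19, adjusted p = 0.027). With ATP5PD (0.19), 3 of the 4 stalk genes passed, 1 of the 5 F1 genes and 2 of the 5 membrane genes (ATP5MF 0.17, ATP5MG 0.16). The catalytic genes ATP5F1B (0.15, adjusted p = 0.0627) and ATP5F1A (0.14, adjusted p = 0.0849) did not pass, nor did the c-ring genes ATP5MC3 (0.10), ATP5MC1 (0.10) and ATP5MC2 (0.05).

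The median SE of a member was 0.06. It applies to single genes and not to a median over genes, and the gaps between complex medians were not tested. Members that passed had a median of 98.0 CPM in untreated cells and the others 62.3 CPM. Taken one library at a time, the median member stood 0.170, 0.177 and 0.0700 above the untreated mean, and the 3 untreated libraries stood 0.0544, -0.0217 and -0.0261 from the mean of their companions. Without auxin replicate 3, 43 members passed, all higher (8.47% of all genes higher), and without untreated replicate 2, 3 did, all higher (2.68%). Same-numbered libraries deviated together (r from 0.22 to 0.50 over genes), and with the replicate number as a block 62 members passed, all higher (30, 6, 10 and 16 by complex), beside 17.9% of all genes higher in that fit. Scaled by library size alone, 6 members passed, beside 20.7% of all genes, and the median was 0.08, still 0.13 above that of all genes. Among 43 members free of any overlapping gene 41 lay above 0, 10 passed and the median was 0.14.

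**Figure D3:**
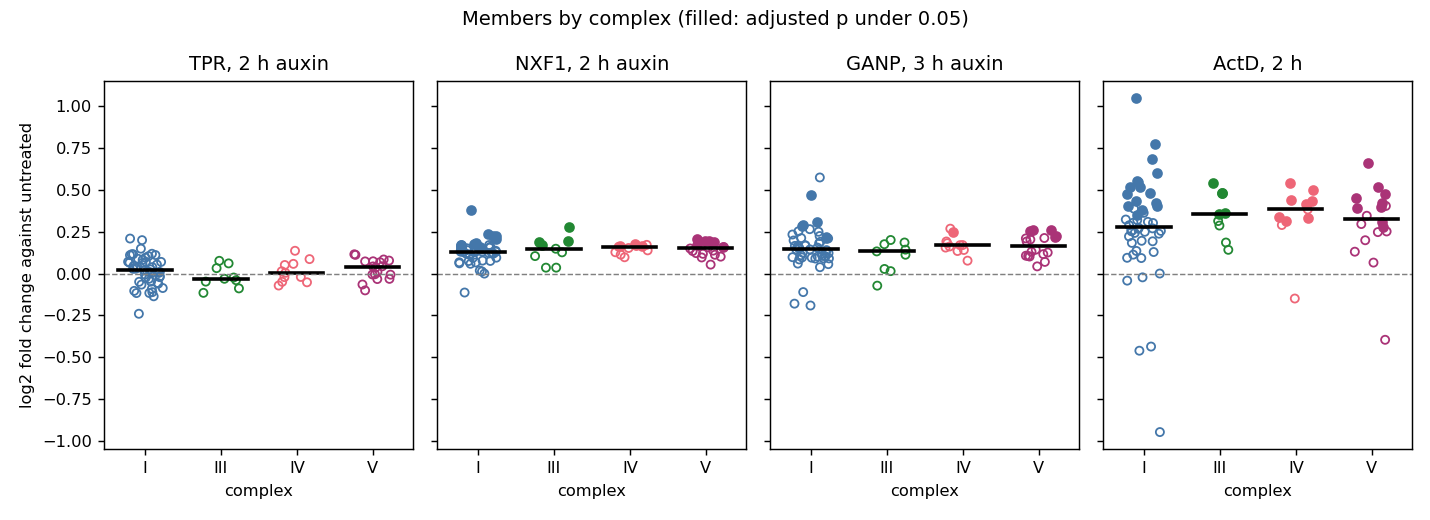
Log2 fold change of each tested member against its untreated group, by complex, in 4 panels (TPR 2 h, NXF1 2 h, GANP 3 h, ActD 2 h), filled where the adjusted p was under 0.05, with bars at the medians. Member medians sit at 0.01 for TPR, 0.14 for NXF1, 0.15 for GANP and 0.31 for ActD.

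Loss of GANP for 3 h gave a similar median and fewer calls. Members had a median of 0.15 against 0.01 over all genes, 82 of 86 lay above 0, and 11 passed, all higher (12.8% of members). Over all genes 28.9% passed, 10.2% higher and 18.7% lower. In this fit, without a replicate block, the share of members called was near the share of all genes called higher. By complex 5 of 48 passed in complex I (median 0.15), 0 of 9 in complex III (0.13, with 3 at an unadjusted p under 0.05, 0 by DESeq2 and 4 with a replicate block), 1 of 11 in complex IV (0.17) and 5 of 18 in complex V (0.17). Over all genes 7386 of 17812 had an unadjusted p under 0.05. The auxin libraries all lay above the untreated ones in 36 members, against 20.1% of all genes. With the replicate number as a block the nearness of the shares was lost. In that fit 27, 4, 10 and 13 members of complexes I, III, IV and V passed higher, beside 25.1% of all genes.

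NDUFAF5 again led complex I, with 19.4, 17.5 and 18.2 CPM untreated and 28.2, 24.03 and 23.97 CPM with auxin (0.47 ± 0.09, adjusted p = 0.00318). NDUFAB1, the mitochondrial acyl carrier protein, which serves fatty acid synthesis as well as complex I, went from 68.4, 61.2 and 68.4 CPM to 86.2, 76.4 and 81.9 CPM (0.31 ± 0.08, adjusted p = 0.0136). NDUFV2 had 82.99, 77.01 and 87 CPM and then 108.8, 91.6 and 102.0 CPM (0.29, adjusted p = 0.0229), and is one of the 10 members counted differently between sets. No auxin library of these 3 genes fell within the untreated range. NDUFA9 (0.28, adjusted p = 0.0172) and NDUFS3 (0.21, adjusted p = 0.0452) passed as well. NDUFV1, which had passed after NXF1 loss, was at 0.08 (adjusted p = 0.454, and -0.024 when scaled by library size alone). The values below 0 included NDUFV3 (-0.19, adjusted p = 0.0743) and NDUFAF4 (-0.18, adjusted p = 0.111).

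Outside complex I, COX6C had 69.9, 68.7 and 74.8 CPM untreated and 88.0, 77.2 and 87.6 CPM with auxin (0.25, adjusted p = 0.0337). In ATP synthase the stalk genes again rose: ATP5PD from 77.8, 74.5 and 79.96 CPM to 98.3, 86.7 and 93.6 CPM (0.26, adjusted p = 0.0206), ATP5PB from 213.0, 189.2 and 207.1 CPM to 262.7, 224.3 and 241.8 CPM (0.26, adjusted p = 0.0337), and ATP5PO from 123.1, 121.1 and 131.0 CPM to 154.3, 141.6 and 151.8 CPM (0.26, adjusted p = 0.0192). The lowest auxin library, replicate 2, still exceeded each untreated one in all of them. The catalytic ATP5F1A (0.23, adjusted p = 0.0477) and ATP5F1B (0.22, adjusted p = 0.0433) passed here. In complex III UQCRH was at 0.20 (adjusted p = 0.0755), UQCRC1 at 0.18 (adjusted p = 0.0681) and UQCRFS1 at -0.07 (adjusted p = 0.465). NDUFA4L2 had the highest fitted value (0.57, adjusted p = 0.0881) on few reads, with 2.58, 1.61 and 1.16 CPM untreated and 2.62, 2.73 and 2.52 CPM with auxin.

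Library by library the median member stood 0.159, 0.0764 and 0.209 above the untreated mean, and untreated libraries stood 0.0193, -0.0775 and 0.0562 from their companions. Replicate 2 was the lowest in both groups. The same-numbered libraries correlated (r from 0.50 to 0.59), and with the replicate block 54 members passed higher (27, 4, 10 and 13 by complex) and 2 lower (NDUFV3 and NDUFAF4), beside 25.1% and 27.5% of all genes. Without untreated replicate 2, 1 member passed, higher (4.97% of all genes higher), and without auxin replicate 3, 2 did, both higher (7.46%). Scaling by library size alone moved the median of all genes from 0.01 to -0.09 and that of members from 0.15 to 0.04. The distance between them stayed at 0.14, and 3 members passed, 1 higher and 2 lower, beside 3.42% and 24.7% of all genes. Directions after GANP loss are therefore relative to the other genes.

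Of the 23 members that passed after NXF1 loss and the 11 after GANP loss, 7 were shared (30.4% and 63.6% of the lists): NDUFAF5, NDUFA9, NDUFV2, COX6C, ATP5PB, ATP5PD and ATP5PO. The share of all genes passing in both comparisons was not computed. NDUFA9, NDUFV2 and ATP5PO are among the 10 counted differently between sets. Across the 86 members the fold changes of these separately controlled comparisons correlated at r = 0.53, and across all genes at r = 0.68; genes of one library share its depth and scaling and are not independent. Tested against each other, the responses to GANP and NXF1 loss differed in 0 members by edgeR (0 at an unadjusted p under 0.05, 0 by DESeq2), where 2.62% of all genes differed. With the block NDUFAB1 alone differed, higher after GANP loss, beside 9.06% of all genes higher.

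In the fit without a replicate block, no change of a member was detected after loss of TPR for 2 h. In the plain set 0 members passed by edgeR or DESeq2 and 1 had an unadjusted p under 0.05, beside 0.662% of all genes passing, with 50 of 86 above 0 and a median of 0.01. Over all genes 1679 of 17812 had an unadjusted p under 0.05. Complex medians were 0.02, -0.03, 0.00 and 0.04 for I, III, IV and V. ATP5F1B had 955.5, 980.1 and 1007 CPM untreated and 1013, 938.6 and 1011 CPM with auxin, and NDUFAF5 20.1, 16.5 and 18.8 CPM and then 21.6, 19.1 and 19.3 CPM (0.12, adjusted p = 0.751). Both pairs of groups overlapped. Same-numbered libraries of the plain set correlated (r from 0.39 to 0.67). With the replicate block NDUFA5 passed higher and NDUFAF8 lower, beside 3.6% of all genes higher and 7.55% lower. The median SE of a member was 0.07, so changes as large as those of most members after NXF1 loss lay within about 2 SE.

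The difference between lines was tested directly. In the TPR response minus the NXF1 response 80 of 86 members lay below 0 (median -0.12, against 0.01 over all genes) and 0 passed by edgeR (14 at an unadjusted p under 0.05, 2 by DESeq2, both lower), beside 2.28% of all genes. By DESeq2 3.27% of all genes passed, 0.5% lower. With the block 11 were lower (NDUFV1, NDUFB7, NDUFAF8, NDUFS8, NDUFB10, NDUFA9, UQCRC1, COX5B, COX6A1, ATP5F1E and ATP5ME), beside 3.49% of all genes. NDUFV1 showed the smallest p: it had 112.8, 120.3 and 123.0 CPM in untreated AID-TPR and 112.2, 110.3 and 111.7 CPM with auxin, and the difference from the NXF1 response was -0.29 ± 0.08 (adjusted p = 0.0931). Against the GANP response 79 members lay below 0 (median -0.14, against 0.01) and 0 passed (10 at an unadjusted p under 0.05, 0 by DESeq2), beside 5.77% of all genes, and with the block 18 were lower (9, 1, 4 and 4 by complex), beside 6.54% of all genes. An unadjusted p under 0.05 was found in 2356 of 17812 genes against the NXF1 response and in 3197 against the GANP response. Both differences share the plain AID-TPR libraries.

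In the old AID-TPR set 0 members passed at 2 h (0 at an unadjusted p under 0.05, 0 by DESeq2) beside 0.455% of all genes, and 0 at 8 h (11 at an unadjusted p under 0.05, 0 by DESeq2) beside 3.63%. The medians were 0.06 and 0.09, and 59 and 66 members lay above 0. These groups share their untreated libraries. At 2 h the third auxin library stood at -0.0766 and the others at 0.103 and 0.135 from the untreated mean, and the untreated libraries stood at -0.102 to 0.121 from the mean of their companions. All 11 members with an unadjusted p under 0.05 at 8 h were higher, among them NDUFAF4 (25.1, 23.7 and 22.3 CPM untreated, 39.0, 26.9 and 32.6 CPM at 8 h, 0.47, adjusted p = 0.11) and ATP5MK (90.6, 104.2 and 89.1 CPM, then 141.9, 108.2 and 118.2 CPM, 0.38, adjusted p = 0.117). Over all genes 4313 of 17812 had an unadjusted p under 0.05 at 8 h, a larger share than among the members. Leaving out the auxin 8 h library old2, 7 members passed, 5 higher and 2 lower, beside 9.85% of all genes higher and 13.3% lower. The 8 h and 2 h groups differed in 0 members (0 at an unadjusted p under 0.05, 0 by DESeq2) and in 0% of all genes.

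No member passed after NUP153 loss. At 2 h 0 passed (0 at an unadjusted p under 0.05, 0 by DESeq2) beside 0.0393% of all genes, and at 8 h 0 passed (7 at an unadjusted p under 0.05, 0 by DESeq2) beside 1.92%, with medians of -0.01 and -0.04. NDUFAF4 had the smallest p at 8 h, with 29.6, 33.0 and 32.0 CPM untreated and 25.6, 27.8 and 26.4 CPM with auxin (-0.25, adjusted p = 0.164). The 8 h and 2 h groups differed in 0 members (7 at an unadjusted p under 0.05, 1 by DESeq2), beside 3.07% of all genes by edgeR and 5.38% by DESeq2. Over all 17812 genes 2459 had an unadjusted p under 0.05 at 8 h and 2884 between 8 h and 2 h.

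After NUP50 loss the members lay slightly lower in every library. At 3 h 8 of 86 lay above 0 (median -0.08) and 0 passed (3 at an unadjusted p under 0.05, 0 by DESeq2), beside 0.241% of all genes. At 9 h 16 lay above 0 (median -0.08) and 0 passed (17 at an unadjusted p under 0.05, 2 by DESeq2, both lower), beside 0.528%. By DESeq2 3.41% of all genes passed at 9 h, 1.73% lower. An unadjusted p under 0.05 was found in 1095 of the 17812 genes at 3 h and in 2940 at 9 h. All auxin libraries lay below all untreated ones in 16 members at 3 h, against 5.46% of all genes, and in 29 at 9 h, against 10.6%. These times share their untreated libraries. UQCRB, a small complex III subunit, had 197.8, 216.8 and 195.0 CPM untreated and 168.9, 170.5 and 174.7 CPM at 9 h (-0.25, adjusted p = 0.0972). NDUFS1 went from 152.0, 170.4 and 174.3 CPM to 129.2, 140.3 and 147.5 CPM (-0.25, adjusted p = 0.129), and ATP5PF, coupling factor 6 of the stalk, from 58.0, 59.0 and 57.6 CPM to 50.5, 49.7 and 48.7 CPM (-0.23, adjusted p = 0.118). Groups were apart in all 3 genes, and none passed in the fit without a replicate block. With the block all 3 passed lower, beside 6.67% of all genes lower. Not every same-numbered pair of these libraries correlated over 0.1, so the block was not taken to pair them. Per library the median stood at -0.0670, -0.0482 and -0.0641 at 3 h and at -0.0887, -0.0701 and -0.0575 at 9 h from the untreated mean, and the untreated libraries stood at -0.0747 to 0.0607 from the mean of their companions. The 9 h and 3 h groups differed in 0 members (0 at an unadjusted p under 0.05, 0 by DESeq2), beside 0.331% of all genes.

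In parental DLD-1 the libraries labelled auxin and untreated differed in 0 members (1 at an unadjusted p under 0.05, 0 by DESeq2), beside 0.0786% of all genes, with a median of 0.03. Over all genes 558 of 17812 had an unadjusted p under 0.05. The libraries labelled auxin stood at 0.0599, 0.00942 and 0.0175.

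**Figure D4:**
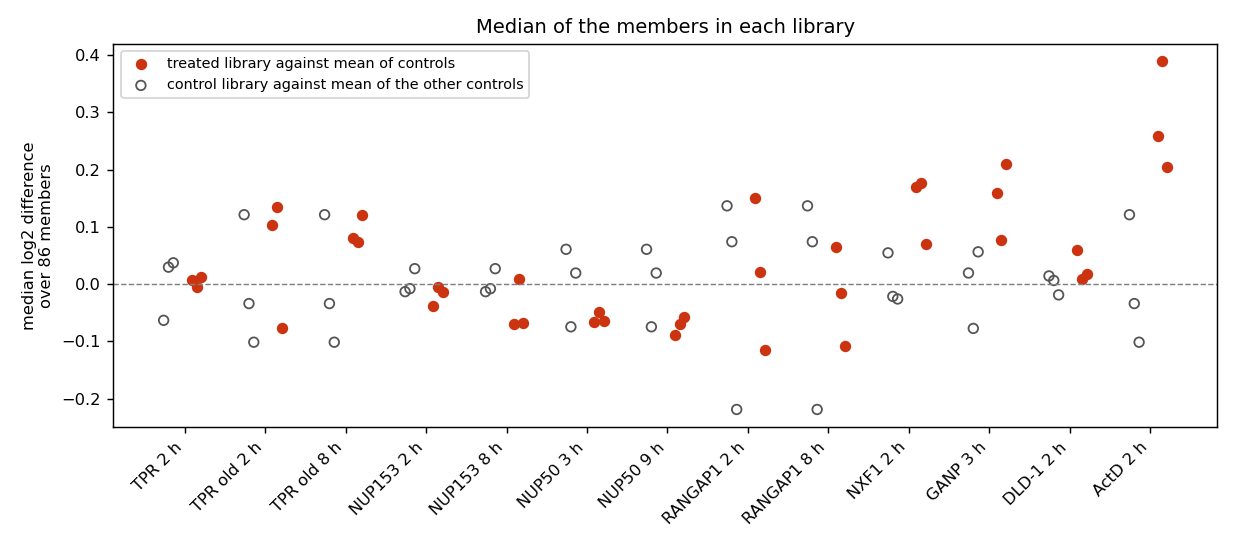
Median log2 difference over the 86 members in each library, for each comparison: filled, a treated library against the mean of its controls, and open, a control library against the mean of the other controls. ActD libraries lie at 0.205 to 0.389, GANP libraries at 0.0764 to 0.209 and NXF1 libraries at 0.0700 to 0.177, and the untreated libraries plotted span -0.219 (RANGAP1-AID untreated replicate 3) to 0.137.

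Loss of RANGAP1 moved single members at 8 h, more of them lower than higher. At 2 h 0 passed (0 at an unadjusted p under 0.05, 0 by DESeq2), beside 0.595% of all genes. At 8 h 5 passed, 1 higher and 4 lower, while 26.7% of all genes passed (13.6% higher, 13% lower). The member median was -0.03, 35 of 86 lay above 0, and complex medians ran from -0.06 (III) to 0.01 (V). All 4 that fell were among the 48 tested members grouped with complex I by prefix (8.33% of them, against 13% of all genes lower). Of the 4, NDUFAF5 and NDUFAF7 are assembly factors.

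NDUFAF5 fell from 22.9, 22.4 and 17.8 CPM untreated, past 19.3, 20.9 and 17.3 CPM at 2 h, to 14.8, 14.3 and 12.97 CPM at 8 h (-0.58 ± 0.11, adjusted p = 0.00338). NDUFAF7, an assembly factor and methyltransferase, had 38.1, 38.3 and 36.4 CPM untreated, 35.7, 39.2 and 36.0 CPM at 2 h and 29.8, 31.1 and 29.4 CPM at 8 h (-0.32 ± 0.07, adjusted p = 0.00578). NDUFAB1 had 89.6, 92.1 and 72.0 CPM, then 92.8, 91.7 and 75.3 CPM, then 71.7, 71.4 and 60.3 CPM (-0.32 ± 0.10, adjusted p = 0.0418). In all 3 genes the 8 h libraries lay below both other groups. NDUFA8, an accessory subunit of the intermembrane space side, had 45.5, 47.6 and 40.3 CPM untreated, 52.9, 44.5 and 46.6 CPM at 2 h and 39.1, 37.9 and 35.3 CPM at 8 h (-0.25 ± 0.08, adjusted p = 0.041). COX7A2L rose from 85.3, 94.2 and 84.0 CPM, past 94.5, 96.0 and 82.7 CPM, to 108.5, 106.4 and 107.5 CPM (0.29 ± 0.07, adjusted p = 0.00952). The core subunits NDUFS1, NDUFV1, UQCRC1, UQCRFS1, COX4I1, COX5B, ATP5F1A and ATP5F1B lay between -0.09 and 0.06 and none passed.

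The 8 h and 2 h groups differed in the same 4 genes that fell, beside 15.2% of all genes (8.05% higher, 7.15% lower): NDUFAF5 by -0.45 (adjusted p = 0.0154), NDUFA8 by -0.36 (adjusted p = 0.0194), NDUFAB1 by -0.35 (adjusted p = 0.0402) and NDUFAF7 by -0.30 (adjusted p = 0.026). Of the 86 members 63 lay below 0, with a median of -0.05 against -0.01 over all genes. Without auxin 8 h replicate 2 or 3, 0 passed in this contrast (6.84% and 9.25% of all genes passed), without replicate 1 of that group 2 did (8.17%), and without auxin 2 h replicate 2, 1 (8.44%). Untreated replicate 3 had the lowest member median of its group (-0.219, against 0.137 and 0.0739), and without it 11 members passed at 8 h, 1 higher and 10 lower, beside 13.1% of all genes higher and 11.5% lower, while leaving out any other library of the 8 h comparison left 3. Same-numbered libraries correlated in this line (r from 0.24 to 0.64). With the block 21 members passed at 8 h, 3 higher and 18 lower, beside 24.5% and 23.7% of all genes, and 11 between 8 h and 2 h, 1 higher and 10 lower, beside 18.9% and 18.4%.

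**Figure D5:**
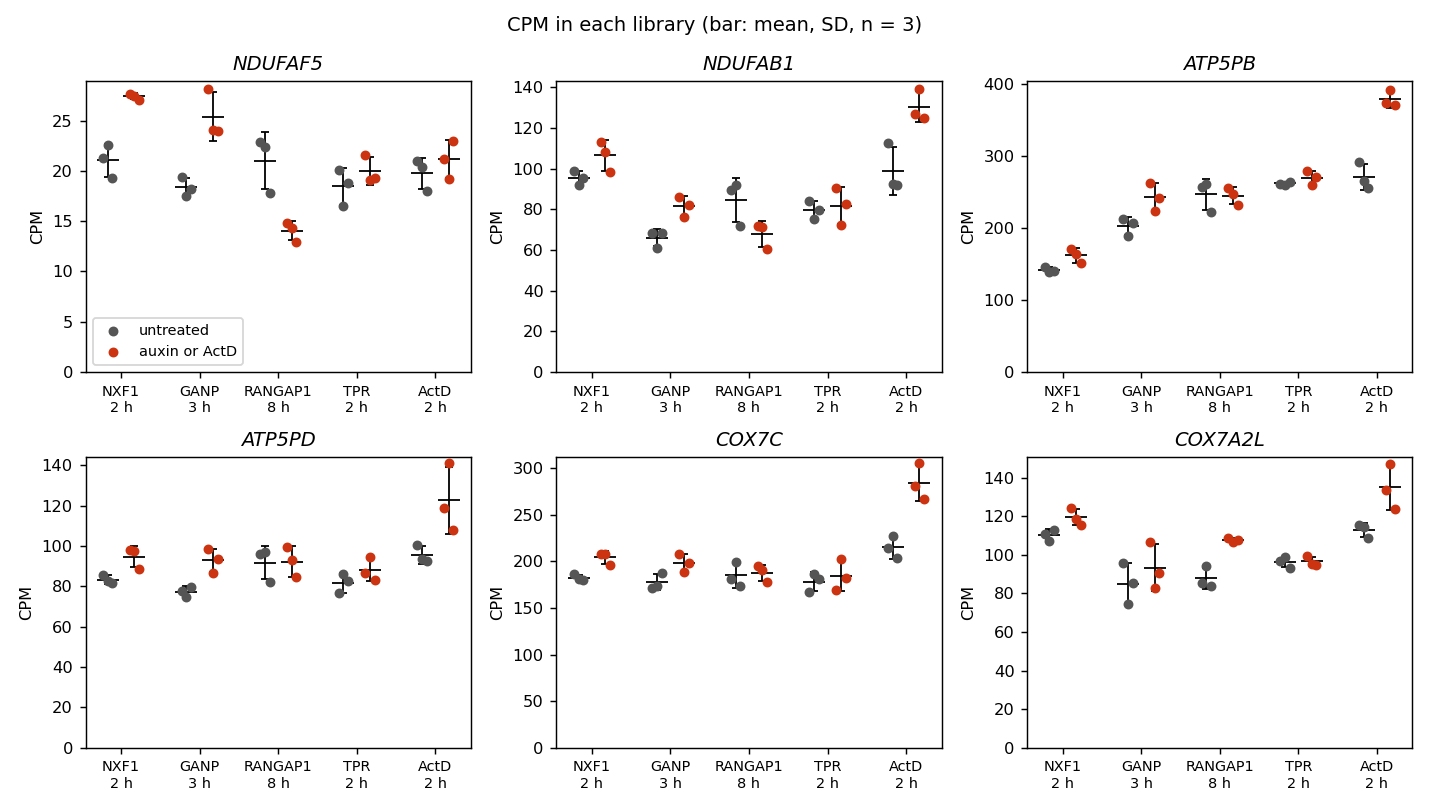
CPM of NDUFAF5, NDUFAB1, ATP5PB, ATP5PD, COX7C and COX7A2L in each library of 5 comparisons (grey untreated, red auxin or ActD, bars mean and SD, n = 3). NDUFAF5 is higher after NXF1 and GANP loss and lower at 8 h of RANGAP1 loss, where it has 12.97 to 14.84 CPM.

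Transcription block by ActD for 2 h was followed by the largest member median of the comparisons made. With 38 of 86 members passing, all higher (44.2% of members), beside 25.8% of all genes (11.2% higher, 14.5% lower), the median was 0.31 against 0 over all genes, and 78 lay above 0. By complex 16 of 48 passed in complex I (median 0.28), 5 of 9 in complex III (0.35), 8 of 11 in complex IV (0.38) and 9 of 18 in complex V (0.33). All 3 ActD libraries exceeded the untreated old ones in 50 members, against 18.6% of all genes. CPM is a share of the reads counted, so a rise here is relative to other RNAs.

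NDUFS4, an accessory subunit of the matrix arm, had 29.0, 26.7 and 25.9 CPM untreated and 42.1, 44.98 and 41.0 CPM with ActD (0.68 ± 0.10, adjusted p = 0.00154). NDUFA5 went from 33.0, 48.0 and 39.4 CPM to 60.5, 63.8 and 76.5 CPM (0.77 ± 0.15, adjusted p = 0.00579), with a wide untreated group, and NDUFB5 from 53.6, 57.0 and 54.9 CPM to 82.6, 87.1 and 75.7 CPM (0.60, adjusted p = 0.00213). In complex III UQCRB went from 156.1, 154.9 and 148.4 CPM to 206.7, 220.9 and 226.2 CPM (0.54, adjusted p = 0.00295). UQCRC2, a core structural subunit, went from 216.7, 202.0 and 203.7 CPM to 284.8, 299.0 and 266.8 CPM (0.48, adjusted p = 0.00521), and UQCRH from 190.9, 182.8 and 163.8 CPM to 241.0, 247.5 and 245.1 CPM (0.48, adjusted p = 0.00649). None of these groups overlapped.

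In complex IV COX7B had 128.5, 103.9 and 95.6 CPM untreated and 153.4, 170.7 and 142.0 CPM with ActD (0.54, adjusted p = 0.0123). COX6A1 had 86.6, 74.9 and 75.4 CPM and then 105.6, 120.7 and 100.7 CPM (0.50, adjusted p = 0.00882), and COX7C 214.2, 227.5 and 203.1 CPM and then 280.3, 305.3 and 267.0 CPM (0.44, adjusted p = 0.0104). In complex V ATP5MK, a small subunit that helps hold ATP synthase dimers, went from 90.6, 104.2 and 89.1 CPM to 146.7, 140.1 and 150.6 CPM (0.66 ± 0.10, adjusted p = 0.00187). The ATP5PB libraries had 291.7, 265.5 and 256.1 CPM and then 374.2, 391.6 and 370.3 CPM (0.52, adjusted p = 0.00438), and those of ATP5F1E 190.3, 161.7 and 143.3 CPM and then 216.2, 236.0 and 220.0 CPM (0.47, adjusted p = 0.0151). The ActD range lay wholly above the untreated range for each gene.

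Of the core subunits NDUFV1 (0.40), UQCRC1 (0.35), COX4I1 (0.33), COX5B (0.44) and ATP5F1B (0.42) passed, and NDUFS1 (0.32, adjusted p = 0.0623), ATP5F1A (0.30, adjusted p = 0.0528) and UQCRFS1 (0.14, adjusted p = 0.291) did not. NDUFC2 passed (1.05 ± 0.33, adjusted p = 0.0406) on 136, 269 and 238 reads against 367, 246 and 1313, with overlapping groups, and it is one of the members counted differently between sets. ATP5F1D, the delta subunit, lay below 0 with 67.8, 76.1 and 111.7 CPM untreated and 62.2, 72.8 and 55.3 CPM with ActD (-0.40, adjusted p = 0.126), COX5A at -0.15 (adjusted p = 0.531) and NDUFA7 at -0.95 (adjusted p = 0.067) on 30, 21 and 20 untreated reads. Per library the ActD medians were 0.258, 0.389 and 0.205, above the untreated range of -0.102 to 0.121. Without old2 18 members passed, all higher (5.85% of all genes higher), and without ActD replicate 1 or untreated old3, 22 did, all higher (5.54% and 6.46%). Without ActD replicate 2, 25 did, all higher (8.72%). Scaled by library size alone, 21 passed, 19 higher and 2 lower, beside 4.69% and 19.4% of all genes, and the median was 0.28 above that of all genes. Adding auxin to ActD changed 0 members (0 at an unadjusted p under 0.05, 0 by DESeq2) beside 0% of all genes, with a median of -0.00.

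Members that passed after ActD shared 13 with NXF1 loss (34.2% of the ActD list, 56.5% of the NXF1 list) and 5 with GANP loss (13.2% and 45.5%). ATP5PB, ATP5PD and COX6C passed in all 3, 50 members passed in at least 1 and 36 in none. The shares of all genes passing in several of these comparisons were not computed, so the sharing is not read as a trait of the members. Across members the fold changes of ActD correlated with those of NXF1 loss at r = 0.14 and with those of GANP loss at r = 0.10. Across all genes these values were much the same, at 0.13 and 0.11.

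Genes of the pathway outside the rule were counted in the same comparisons, where 7.4% of all genes passed higher and 14.1% lower after NXF1 loss, 10.2% and 18.7% after GANP loss, 13.6% and 13% at 8 h of RANGAP1 loss, and 11.2% and 14.5% after ActD. Of 6 further nuclear subunits and carriers, 2 passed after NXF1 loss, 1 after GANP loss and 3 after ActD, all higher: SDHB (complex II) passed higher after NXF1 loss (0.25), GANP loss (0.30) and ActD (0.37), cytochrome c1 (CYC1) after NXF1 loss (0.19), and cytochrome c (CYCS, 0.80) and SDHD (0.69) after ActD. A further list outside the symbol rule, mostly assembly factors of complexes I to V, had 39 tested genes. Of these 1 rose and 5 fell after NXF1 loss, and 2 rose and 7 fell after GANP loss. At 8 h of RANGAP1 loss 8 rose and 2 fell, and after ActD 9 rose and 2 fell. COA7, a complex IV assembly factor, had 53.4, 57.7 and 58.6 CPM in untreated AID-GANP and 26.9, 23.5 and 25.6 CPM with auxin (-1.16), and it was at -0.92 after NXF1 loss and 0.48 at 8 h of RANGAP1 loss. SDHAF1, the intronless assembly factor of complex II, had 6.40, 6.18 and 8.17 CPM and then 2.57, 2.11 and 2.58 CPM (-1.51). It was at -0.84 after NXF1 loss, at -1.18 and -1.28 after TPR loss for 2 h and 8 h in the old set, where it passed, at -0.64 (adjusted p = 0.051) in the plain set, and at 0.62 at 8 h of RANGAP1 loss. Among 11 tested regulators 1 rose and 2 fell after NXF1 loss, 2 rose and 1 fell after GANP loss, 3 rose and 2 fell at 8 h of RANGAP1 loss, and 2 rose and 3 fell after ActD. NRF1 passed higher after NXF1 loss (0.37), GANP loss (0.75) and 8 h of RANGAP1 loss (0.87) and lower after ActD (-0.64), and the coactivator PPRC1 lower after NXF1 loss (-0.61), GANP loss (-0.46) and ActD (-0.95) and higher at 8 h of RANGAP1 loss (0.48).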

How the data were processed

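Counts were made by the authors. They called bases with CASAVA 1.8.2, aligned 101-base reads to GRCh38 with STAR 2.6.1c and counted them per Ensembl gene with featureCounts 1.5.2. These versions are from the submitters' processing notes, and the study's methods name earlier versions of STAR and featureCounts. The deposited unit is raw counts. How overlapping genes were assigned is not given in the sources used here. Symbols came from GENCODE 44 (56948 identifiers matched, 1103 did not).

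Genes over 1 CPM in at least 4 of the 60 libraries without ActD were tested with edgeR 4.0.16 (R 4.3.3, limma 3.58.1) on TMM-scaled counts, each comparison fitted on its own groups, without a block. DESeq2 1.42.0, other scalings, no filter, one fit over all groups, a replicate block and leaving out each library were alternatives. The block was taken to pair libraries where every same-numbered pair correlated over 0.1. Named genes were those that passed with non-overlapping groups and a mean of at least 50 counts (up to 3 per complex and direction), fixed core subunits and isoforms. Other genes were named after their values were seen, and 1 core subunit is not reported here by name. Members and lists were chosen with earlier results of these data known. The model was tested on simulated data. Totals ran from 18943661 to 55411411 counts (median 32285399). Intervals for a count of 0 cover counting error only. Figures used matplotlib 3.10.9.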

Additional observations from a re-analysis of the deposited data

Results flagged for a closer look

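At 8 h of RANGAP1 loss 4 members grouped with complex I by prefix differed from 2 h by a test of the difference itself. The log2 differences were -0.45 (NDUFAF5), -0.36 (NDUFA8), -0.35 (NDUFAB1) and -0.30 (NDUFAF7). These are 4 of 86 members, where 15.2% of all genes differed (7.15% lower), and leaving out 1 library gave 0 to 5 members. NDUFAF5 lay higher in every auxin library after NXF1 loss and GANP loss and lower in every 8 h library after RANGAP1 loss (-0.58), and NDUFAB1 did so for GANP loss and RANGAP1 loss (-0.32). The difference between these lines was not tested.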

How the results depend on the processing

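Directions of the member medians after NXF1 loss, GANP loss and ActD held in every alternative run, while the number of members passing moved. Scaled by library size alone, 6 passed after NXF1 loss, 3 after GANP loss and 21 after ActD. With a replicate block, 62 passed after NXF1 loss, 56 after GANP loss, 21 at 8 h of RANGAP1 loss, 11 between its 8 h and 2 h, 2 after TPR loss (plain set), 1 in GANP against NXF1 loss, 11 in TPR against NXF1 loss and 18 in TPR against GANP loss. The block gave 10 at 9 h of NUP50 loss, all lower (6.67% of all genes lower), where the numbers did not pair the libraries (r from 0.08 to 0.61; 2 of 3 libraries correlated best with their own number), and it changed no other count of members by over 1.5 times. DESeq2 gave 2 at 9 h of NUP50 loss, beside 3.41% of all genes, and 1 in NUP153 loss 8 h against 2 h (5.38%). It gave 2 in TPR against NXF1 loss (3.27%). No filter gave 2 at 9 h of NUP50 loss (2.83%) and 1 in NUP153 loss 8 h against 2 h (4.27%). One fit over all groups gave 3 at 8 h of RANGAP1 loss (25.1%). Library size alone put UQCRFS1 at -0.025 after NXF1 loss and NDUFV1 at -0.024 after GANP loss. The cause of these shifts was not tested. Leaving out 1 library gave 3 to 43 members after NXF1 loss, 1 to 15 after GANP loss, 18 to 40 after ActD, 3 to 11 at 8 h of RANGAP1 loss, 0 to 5 in its 8 h against 2 h, 0 to 7 at 8 h in the old AID-TPR set, 0 to 1 at 9 h of NUP50 loss and 0 to 1 in NUP153 loss 8 h against 2 h. The single values that changed sign were near 0: at 8 h of RANGAP1 loss ATP5F1A (-0.11 to 0.025), COX5B (-0.16 to 0.046) and UQCRFS1 (-0.095 to 0.027), and after NXF1 loss UQCRFS1 (-0.019 to 0.094).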
